A study of Mus musculus with 4 samples.

Results

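The heterogeneous nuclear ribonucleoproteins (hnRNPs), the serine/arginine-rich splicing factors (SR proteins) and a set of related regulators of alternative splicing were compared between the pseudopodia and the cell bodies of migrating fibroblasts. The members were all probe sets annotated with a single gene symbol that begins with Hnrnp or Srsf, or that is Tra2a, Tra2b, Rbm39, Rbm25, Ptbp1, Pcbp1, Pcbp2, Celf1, Mbnl1 or Mbnl2. These were 39 of the 18193 genes named on the array, read by 140 of its 45037 probe sets that are not controls. They comprised 19 hnRNP genes with 58 probe sets, 10 SR protein genes with 33 and the 10 other regulators with 49. A probe set is a group of short oligonucleotides that together report on 1 stretch of a transcript, and 1 gene can have several. After dim probe sets were left out, 122 member probe sets of 38 genes remained, of 22519 probe sets in all. The single probe set of Srsf12 was among the 18 left out.

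SR proteins bind exonic sequences and mostly promote the use of nearby splice sites, whereas hnRNPs coat nascent transcripts and often repress exons or bind introns. Both families work mainly in the nucleus, but several members, such as hnRNP K, hnRNP A2/B1 and the poly(C)-binding proteins, also shuttle to the cytoplasm and take part in mRNA transport, stability and translation. Genes of both families are known to make alternative transcripts of their own, including forms with retained introns or with exons that introduce an early stop codon, so that probe sets of 1 gene can read different RNAs. The stretch of transcript that each probe set reads was not analysed here.

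Biotin-labelled total RNA from the mouse fibroblast line NIH/3T3 was hybridised to 4 Affymetrix arrays of 1 design, with 2 pseudopodia and 2 cell body samples that the series describes as independent. All 4 samples came from unmodified cells grown in 10% calf serum, starved of serum overnight and left to spread for 2 h on a fibronectin-coated porous membrane of 24 mm. LPA (lysophosphatidic acid, a serum lipid that draws fibroblasts to extend protrusions) was then added to the lower chamber, and 1 h later, at 150 ng/ml LPA, the cells were fixed in 0.3% formaldehyde for 10 min. Material on the underside of the membrane gave the pseudopodia and material on the upper side the cell bodies, so both groups had the same stimulus and no unstimulated sample is analysed here. NIH/3T3 is an established line, and each sample is the scraped material of many cells. Fractions of this kind are bulk samples, in which fewer cells of a type and less RNA per cell cannot be told apart.

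Each value is a MAS5 signal, a background-corrected brightness that had been scaled so that every array had the same trimmed mean (250.0), and a difference is therefore one of shares of a fraction's signal, not of amounts. The median signal of an array was 29.8 to 33.3. Of 8 fibroblast marker genes 7 were bright enough to be kept, and their summed signal was 113992 to 118243 in pseudopodia and 119757 to 123369 in cell bodies, with Vim the brightest. The summed markers of epithelium reached 2412 to 2822.9 in pseudopodia and 2598 to 2953.1 in cell bodies, those of blood 212.4 to 241.8 and 279.3 to 346.1, and those of endothelium 64.2 to 129.8 and 39.3 to 62.6. The ratio of the 3′ to the 5′ probe sets of beta-actin, a measure of RNA integrity that rises as RNA is shortened, was 1.55 and 1.89 in the cell bodies and 1.77 and 3.41 in the pseudopodia, so pseudopodia replicate 2 stood highest. Its part in the results was not tested.

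The first comparison asked which splicing regulator RNAs were a larger or smaller share of the pseudopodia than of the cell bodies. Of the 122 member probe sets, 3 fell in pseudopodia and none rose. The 3 were 1 probe set each of Tra2a, Rbm39 and Hnrnpdl, and their log2 differences were −1.95, −1.22 and −1.45. Most of the family lay near 0, with a median log2 difference of 0.03 against −0.03 for all 22519 probe sets, and 62 of the 122 estimates were above 0. Another probe set of Tra2a and 4 of Hnrnpdl had estimates above 0, whereas 9 of 10 Rbm39 probe sets, its brightest included, had estimates under 0. Among these 9, 1438397_a_at and 1438398_at were kept through their cell body signal alone, so their sign was fixed by the filter.

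The test was limma's moderated test on log2(signal + 32), with 2 arrays a group and Benjamini-Hochberg adjustment over all 22519 probe sets at 0.05. By this rule 1.09% of all probe sets were higher and 3.38% lower in pseudopodia, and 2.46% of the members were lower, which is near the background. Without adjustment, 17 members were higher and 16 lower at p under 0.05, against 8.68% and 13.5% of all probe sets. When the replicate number, which marks arrays scanned on the same day, was fitted as a block, 15 members were higher and 14 lower, against 7.31% and 11.9% of all probe sets, and the 3 probe sets were again among the lower ones. The 14 include Rbm39 1438397_a_at and 1438398_at, kept through their cell body signal alone. Leaving out either cell body array left no probe set called, member or not, whereas leaving out either pseudopodia array left calls in both directions. Such a fit has 1 array in a group, so only its estimates are given. The median of the members was 0.05 and −0.02 without cell body replicates 1 and 2, and −0.08 and 0.15 without pseudopodia replicates 1 and 2. That of all probe sets was −0.04, −0.04, −0.04 and 0.00. The p-values of these tests reflect only the 4 samples, through the spread at a probe set pooled with that of the other probe sets. The other probe sets carry most of the weight, above all with the block, so a block call does not mean that the replicates matched. An exact permutation test of 2 against 2 cannot go below 0.333.

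**Figure D1:**
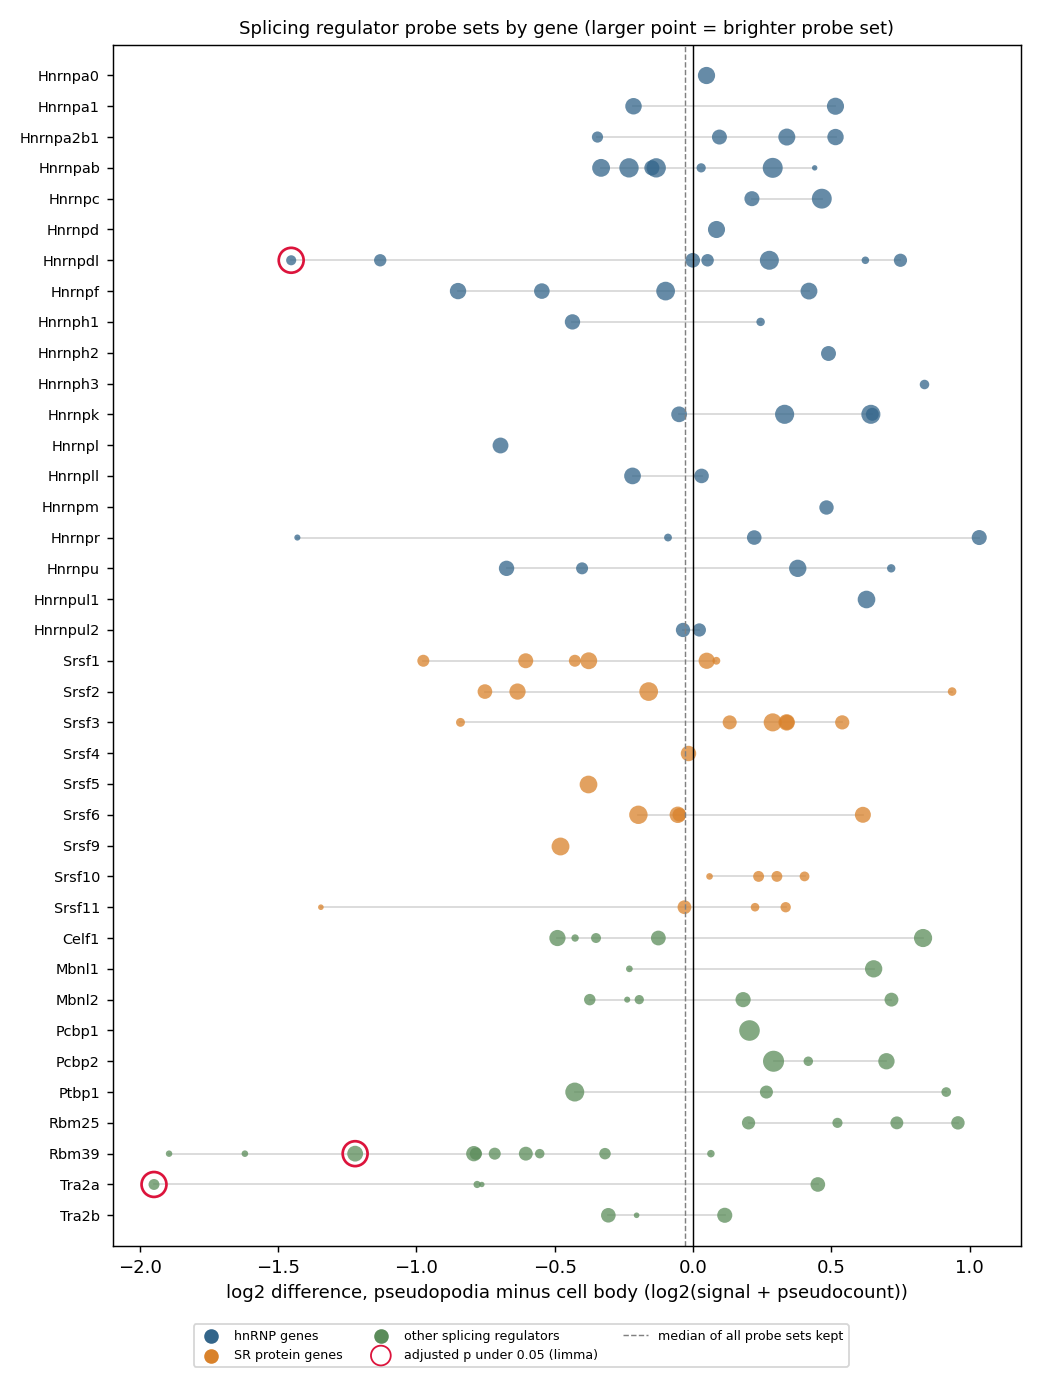
Log2 difference (pseudopodia minus cell body, on log2(signal + 32)) of each of the 122 kept member probe sets, 1 row per gene, with larger points for brighter probe sets, colours for the 3 groups of genes and a red ring for an adjusted p under 0.05. The ringed points of Tra2a, Rbm39 and Hnrnpdl lie at −1.95, −1.22 and −1.45, and the rows of most genes with several probe sets cross 0.

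The range within a gene was wide. Of the 27 member genes with 2 or more kept probe sets, 23 had estimates on both sides of 0, and the median range from the lowest to the highest estimate was 0.88 on the log2 scale. Over all 5040 such genes 48.2% lay on both sides and the median range was 0.52. Member genes had more probe sets, with a median of 4 kept against 2. Among genes with exactly 4 kept probe sets, the 11 members had a median range of 1.27 and 9 lay on both sides of 0, against 0.83 and 68.5% of all 517 such genes. With 2 kept probe sets the median range was 0.47 for 6 members and 0.37 for all genes. With 3 it was 0.42 for 3 members and 0.66 for all. With 5, 6 and 7 it was 1.21, 1.22 and 1.49 for 2 members each, and 1.03, 1.22 and 1.32 for all. Among the 11 the lowest estimates of Hnrnpr (range 2.46) and Srsf11 (1.68) came from probe sets kept through their cell body signal alone. These are descriptions of the estimates, which carry the error of each probe set.

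The estimates also lay higher for the brightest probe set of a gene than for its others. The brightest probe set of each of the 38 genes had a median difference of 0.22, with 24 above 0, whereas the other 84 had a median of −0.07, with 38 above 0. The same medians over all genes were 0.01 and −0.06. The 21 member probe sets designed from a RefSeq mRNA had a median of 0.29, with 15 above 0, and the 84 designed from another GenBank sequence, often an expressed sequence tag (EST), a median of −0.04. The 17 with no source sequence listed had a median of −0.22. Over all probe sets with 1 symbol these medians were 0.00, −0.02 and 0.06. At least 1.5-fold lower in pseudopodia in each of the 4 pairs of arrays were 7 members of 4 genes, 5.74% against 8.07% of all probe sets, and 3 members (2.46%) were as much higher, against 2.88%. Of the 7, Rbm39 1438397_a_at and 1438398_at and Hnrnpr 1438807_at had been kept through their cell body signal alone.

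To compare probe sets within genes directly, the difference of each dimmer probe set was tested against that of the brightest probe set of its gene. Of 84 such pairs of members 1 passed limma at an adjusted p under 0.05, the pair of Tra2a, against 0.880% of all 8406 pairs. Without adjustment 18 of the 84 pairs had p under 0.05, against 12.5% of all pairs. With the replicate block 5 member pairs passed, against 2.74% of all pairs, adding 2 pairs of Hnrnpdl and 1 each of Hnrnpr and Celf1. The Hnrnpr pair rests on a probe set, 1438807_at, that passed the filter through its cell body signal alone, so its call is a description and no support. An array's scaling factor cancels in this comparison apart from the pseudocount of 32.

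**Figure D2:**
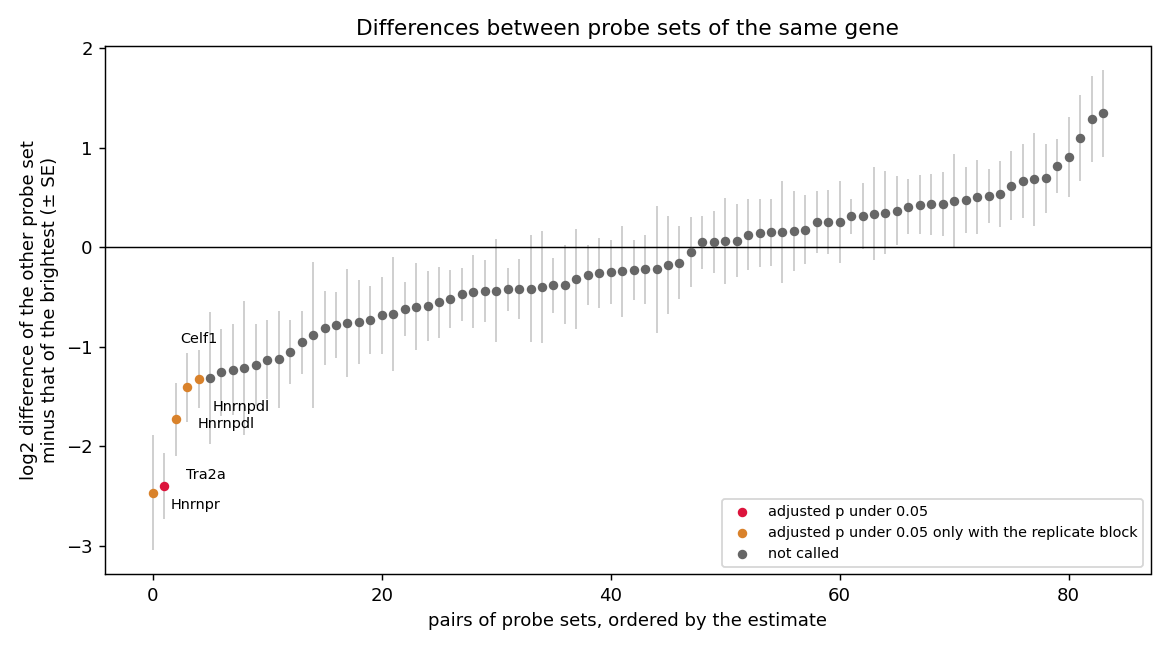
Log2 difference of each dimmer member probe set minus that of the brightest probe set of its gene, with its standard error, for 84 pairs in order of the estimate. The red point is the Tra2a pair at −2.40, and the 4 orange points at −2.46, −1.73, −1.41 and −1.32 passed only with the replicate block.

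Tra2a encodes a Transformer-2 protein, an SR-like activator of exon inclusion. Its brightest probe set, 1454725_at, had signals of 452.4 and 421.3 in the cell bodies and 514 and 706.2 in the pseudopodia. Both pseudopodia arrays were above both cell body arrays, and the log2 difference was 0.45 ± 0.24 (SE, limma adjusted p = 0.309, n = 2 a group). The second probe set, 1429680_at, had 214.9 and 198.5 in the cell bodies and 31.3 and 54.3 in the pseudopodia. It fell by 1.95 ± 0.29 on the log2 scale (limma adjusted p = 0.0232, n = 2 a group), with −2.29 in replicate 1 and −1.61 in replicate 2. The groups were far apart in each replicate, in the direction opposite to the brightest probe set.

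The difference between these 2 Tra2a probe sets was −2.40 ± 0.33 (limma adjusted p = 0.0218, n = 2 a group), and it was nearly the same in replicate 1 (−2.47) and replicate 2 (−2.33). The pair lost its call when either cell body array was left out, with the estimate at −2.40 both times. Its estimate was −2.34 without pseudopodia replicate 1 and −2.46 without pseudopodia replicate 2. The other Tra2a probe sets were dim. Probe set 1442886_at had 60.6 and 57.9 in the cell bodies and 15.3 and 45.3 in the pseudopodia, and 1439043_at had 39.5 and 43.5 and then 37.8 and 5.3. Both lay lower on both pseudopodia arrays, with log2 differences of −0.78 and −0.76 that did not pass the test. Probe set 1439043_at was kept through its cell body signal alone, so its difference is a description. It was −0.04 in replicate 1 and −1.48 in replicate 2.

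Tra2b, the paralogue that binds the same purine-rich enhancers, had a narrower range. Its brighter probe sets, 1427432_a_at and 1419543_a_at, had log2 differences of 0.11 ± 0.22 and −0.31 ± 0.23, and the range over its 3 kept probe sets was 0.42 against 2.40 for Tra2a.

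Hnrnpdl encodes an hnRNP D-like protein that binds AU-rich elements, and it was read by 7 kept probe sets. The brightest, 1424251_a_at, had 4422.1 and 4386.7 in the cell bodies and 5460.6 and 5213.4 in the pseudopodia, a log2 difference of 0.28 ± 0.15 (limma adjusted p = 0.337, n = 2 a group) that was −0.06 when arrays were scaled on their hybridization controls. Probe set 1428225_s_at had 177.8 and 116.9 in the cell bodies and 43.8 and 41.5 in the pseudopodia. It fell by 1.45 ± 0.30 on the log2 scale (limma adjusted p = 0.0435, n = 2 a group), with −1.70 in replicate 1 and −1.21 in replicate 2, so that every pseudopodia array was well under every cell body array.

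A further Hnrnpdl probe set, 1424252_at, had 233.2 and 344.6 in the cell bodies and 121.8 and 120 in the pseudopodia, with a log2 difference of −1.13 ± 0.26 (limma adjusted p = 0.0553, n = 2 a group; 0.00194 with the replicate block). Going the other way, 1456698_s_at had 212.7 and 207.6 in the cell bodies and 318.7 and 415.9 in the pseudopodia, a difference of 0.75 ± 0.23 (limma adjusted p = 0.114, n = 2 a group; 0.0217 with the block). Thus probe sets of 1 gene separated the arrays in opposite directions. The dim 1428224_at was designed from the same EST as 1428225_s_at, yet its signals were 35 and 33.6 in the cell bodies and 61.5 and 61.4 in the pseudopodia. Probe sets with this _s_at ending can also detect other transcripts, so the assignment to Hnrnpdl is uncertain. Against the brightest probe set, 1428225_s_at differed by −1.73 ± 0.36 (limma adjusted p = 0.0719, n = 2 a group; 0.0251 with the block) and 1424252_at by −1.41 ± 0.34 (0.117 and 0.0379).

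**Figure D3:**
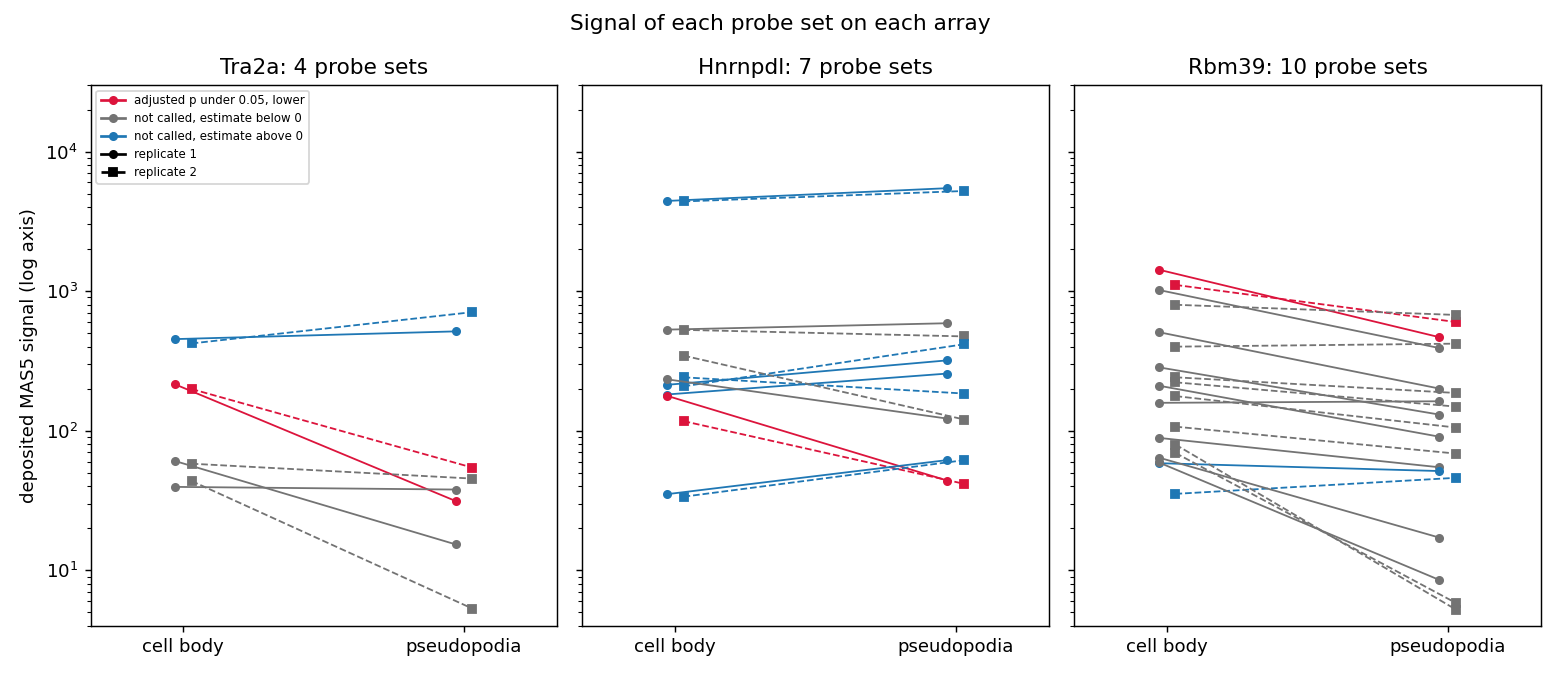
Deposited MAS5 signal, on a log axis, of every kept probe set of Tra2a, Hnrnpdl and Rbm39 in cell bodies and pseudopodia, with a line for each replicate and red for the probe sets with an adjusted p under 0.05. The brightest Tra2a and Hnrnpdl lines run upward (the latter's estimate is −0.06 when scaled on the hybridization controls) while the red lines run downward, and 9 of the 10 Rbm39 probe sets have estimates under 0. Among these 9, 1438397_a_at and 1438398_at were kept through their cell body signal alone.

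Rbm39, also called CAPER-alpha, encodes a U2AF-related protein with an arginine/serine-rich region that takes part in splicing and transcription. Of its 10 kept probe sets 9 had estimates under 0, the brightest included, unlike at Tra2a and Hnrnpdl, whose brightest probe sets had estimates above 0. The brightest, 1438420_at, had 1423.8 and 1106.6 in the cell bodies and 467 and 599.5 in the pseudopodia. It fell by 1.22 ± 0.23 on the log2 scale (limma adjusted p = 0.0359, n = 2 a group), with −1.58 in replicate 1 and −0.87 in replicate 2, and no overlap of the groups. With the replicate block 5 of the 10 were lower, 4 of them in addition to 1438420_at, where the block called 11.9% of all probe sets lower. Both counts include 1438397_a_at and 1438398_at, which were kept through their cell body signal alone, so that their sign was fixed by the filter and supports nothing.

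Next in brightness, 1446147_at had 1018.3 and 797.3 in the cell bodies and 390.3 and 674.2 in the pseudopodia (log2 difference −0.79 ± 0.29, limma adjusted p = 0.165, n = 2 a group; 0.0146 with the block). The dim 1438397_a_at had 59.2 and 79.4 in the cell bodies and 8.5 and 5.2 in the pseudopodia (−1.89 ± 0.43, limma adjusted p = 0.0516, n = 2 a group). Its neighbour 1438398_at, designed from the same EST, had 64.1 and 69.1 and then 17.1 and 5.8 (−1.62 ± 0.43, limma adjusted p = 0.0735, n = 2 a group). These dim probe sets were kept through their cell body signal alone. The same held for 6 members in all, whose pseudopodia mean was under the filter level of 30.0, the others being Hnrnpr 1438807_at, Srsf11 1430077_at, Tra2a 1439043_at and Tra2b 1441466_at. A member kept in this way had to differ, so its difference is a description. Nor are the Rbm39 probe sets independent of one another, since 1446147_at and 1446148_x_at also share an EST. The exception was 1443988_at, with 58.4 and 35.2 in the cell bodies, 51.3 and 45.9 in the pseudopodia and a log2 difference of 0.06 ± 0.36. The probe set designed from the Rbm39 RefSeq mRNA, 1420982_at, was too dim to be kept.

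None of the 3 probe sets that fell kept its call when either cell body array was left out. Without cell body replicate 1 the log2 differences were −1.90 for Tra2a, −1.04 for Rbm39 and −1.18 for Hnrnpdl, and without cell body replicate 2 they were −2.0, −1.40 and −1.72. In the same order they were −1.66, −1.05 and −1.48 without pseudopodia replicate 1, and −2.23, −1.40 and −1.42 without pseudopodia replicate 2.

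Among the other hnRNP genes no probe set passed the test. The 51 hnRNP probe sets had a median of 0.05, with 30 above 0. Hnrnpr, which encodes an hnRNP found in neuronal RNA granules, held the highest estimate of all members. Its probe set 1437526_x_at had 354.1 and 460.2 in the cell bodies and 729.8 and 975.4 in the pseudopodia, a log2 difference of 1.03 ± 0.25 (limma adjusted p = 0.0581, n = 2 a group; 0.000643 with the replicate block). Its dimmest kept probe set, 1438807_at, had 77.8 and 41.8 in the cell bodies and 7.7 and 15.5 in the pseudopodia, a difference of −1.43 ± 0.46. The latter was kept through its cell body signal alone, as its pseudopodia signals lie under the filter level, so its separation had to arise and supports nothing. The pair differed by −2.46 ± 0.58 (limma adjusted p = 0.106, n = 2 a group; 0.0457 with the block), a description for the same reason. The _x_at ending marks probes that can bind related sequences, so the first assignment is uncertain.

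Hnrnpk, a KH-domain protein that binds C-rich RNA and shuttles to the cytoplasm, had 3 of 4 probe sets with both pseudopodia arrays above both cell body arrays. This separation was common, at 24.7% of all probe sets. The second brightest, 1460547_a_at, had 4112.8 and 3742.5 in the cell bodies and 5567.8 and 6758.1 in the pseudopodia, a log2 difference of 0.64 ± 0.17 (limma adjusted p = 0.0758, n = 2 a group; 0.00279 with the replicate block). The brightest, 1448176_a_at, had 4665.8 and 4625.1 and then 5414.6 and 6314.6, a difference of 0.33 ± 0.16 that was −0.00 when scaled on the hybridization controls. Hnrnpc, a core protein of the hnRNP particle, was similar. Its brightest probe set, 1460240_a_at, had 6791.9 and 6984.8 in the cell bodies and 10026.5 and 9030.6 in the pseudopodia, a difference of 0.47 ± 0.15 (limma adjusted p = 0.112, n = 2 a group; 0.0126 with the block).

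Hnrnpa2b1 encodes the proteins that bind transport elements in myelin basic protein mRNA. Its probe set 1433829_a_at had 900.2 and 1049.5 in the cell bodies and 1243 and 1567.2 in the pseudopodia (0.51 ± 0.21), whereas the dim 1433830_at had 128.1 and 182 and then 115.7 and 118.2 (−0.35 ± 0.26). Each separated the groups, in opposite directions, and neither passed the test, but with the replicate block 1433829_a_at was higher (adjusted p = 0.0462 in limma). The brightest, 1420365_a_at, gave 0.34 ± 0.24 and 1434047_x_at gave 0.10 ± 0.33, both with overlapping arrays. Of the 4 kept Hnrnpa2b1 probe sets only 1433830_at thus had an estimate under 0. Hnrnpa1, a splicing repressor with many processed pseudogenes, had 1255.6 and 1549.4 in the cell bodies and 1532.4 and 2608.2 in the pseudopodia for 1436549_a_at (0.51 ± 0.27, limma adjusted p = 0.319, n = 2 a group; 0.041 with the block), so that its groups overlapped. A second Hnrnpa1 probe set, 1455305_x_at, gave −0.22 ± 0.22, and the signal of pseudogene transcripts cannot be told apart from it here.

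Hnrnpu, the scaffold attachment factor that binds chromatin-associated RNA, also split by probe set. The brightest, 1423050_s_at, had 1619.8 and 1764.8 in the cell bodies and 2205.9 and 2199.4 in the pseudopodia (0.38 ± 0.18). The next, 1423051_at, had 904.8 and 886.4 and then 698.3 and 440.9 (−0.67 ± 0.26, limma adjusted p = 0.178, n = 2 a group; 0.0213 with the replicate block). Neither pair of groups overlapped. The _s_at ending of 1423050_s_at leaves its assignment to Hnrnpu uncertain. Hnrnpul1, a relative of Hnrnpu, had 1998.4 and 1575 in the cell bodies and 2469.5 and 3056.5 in the pseudopodia (0.63 ± 0.21, limma adjusted p = 0.13, n = 2 a group; 0.0123 with the block), and Hnrnpul2 had estimates of −0.04 and 0.02.

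Hnrnpab, which binds AU-rich and transport elements, had 7 kept probe sets, whose estimates ran from −0.33 to 0.44. The highest, the dim 1459880_at, was the 1 member kept through its pseudopodia signal alone, so its estimate is a description. Next came the brightest, 1455855_x_at, at 0.29. Hnrnpf, a binder of G-rich sequences, ran from −0.85 to 0.42 over 4 probe sets, the lowest being 1423382_a_at (limma adjusted p = 0.2, n = 2 a group; 0.00472 with the block). Its relatives Hnrnph1 (−0.44 and 0.24), Hnrnph2 (0.49) and Hnrnph3 (0.83 ± 0.28) lay on both sides of 0. The single kept probe sets of Hnrnpa0, Hnrnpd and Hnrnpm had estimates of 0.05, 0.08 and 0.48, and those of Hnrnpll were −0.22 and 0.03. For Hnrnpl, a CA-repeat binder, the values were 1156.7 and 928.2 in the cell bodies and 1301.2 and 303.6 in the pseudopodia. Pseudopodia replicate 1 was thus the highest of the 4 arrays and pseudopodia replicate 2 the lowest by a wide margin.

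The 31 SR probe sets had a median difference of −0.02, with 15 above 0, and none passed the test. Srsf1 (SF2/ASF), the founding SR protein, was lower in pseudopodia replicate 2 than in pseudopodia replicate 1 for all 6 probe sets. Its brightest, 1428099_a_at, had 1584.7 and 1737.1 in the cell bodies and 1983.6 and 816.1 in the pseudopodia. Probe set 1430982_at had 230.3 and 199.7 and then 260.7 and 33.7. In both, pseudopodia replicate 1 was the highest array and pseudopodia replicate 2 the lowest, so the log2 difference was 0.32 in replicate 1 and −1.08 in replicate 2 for the first, and 0.17 and −2.12 for the second. With the replicate block the second was called lower (limma adjusted p = 0.0498, against 0.443 without), although its 2 replicates had opposite signs.

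Srsf9, a close relative of Srsf1, had 2786.1 and 2965.4 in the cell bodies and 3223.3 and 1305.8 in the pseudopodia, again the highest and the lowest array. Across the members, 26 probe sets were at least 1.5-fold lower in pseudopodia replicate 2 than in replicate 1, which is 21.3% against 13.4% of all probe sets, and 12 were as much higher, 9.84% against 13.1%. Of the 26, 11 belonged to the 31 SR probe sets, 8 to the 51 hnRNP probe sets and 7 to the 40 others. In the cell bodies only 3 and 4 members differed as much between replicates, against 7.82% and 6.73% of all probe sets. The beta-actin ratio given above was highest on pseudopodia replicate 2, at 1.81 times its cell body partner against 1.14 times in replicate 1. The corresponding Gapdh ratios were 1.06 and 1.05. Their part in the SR values was not tested.

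**Figure D4:**
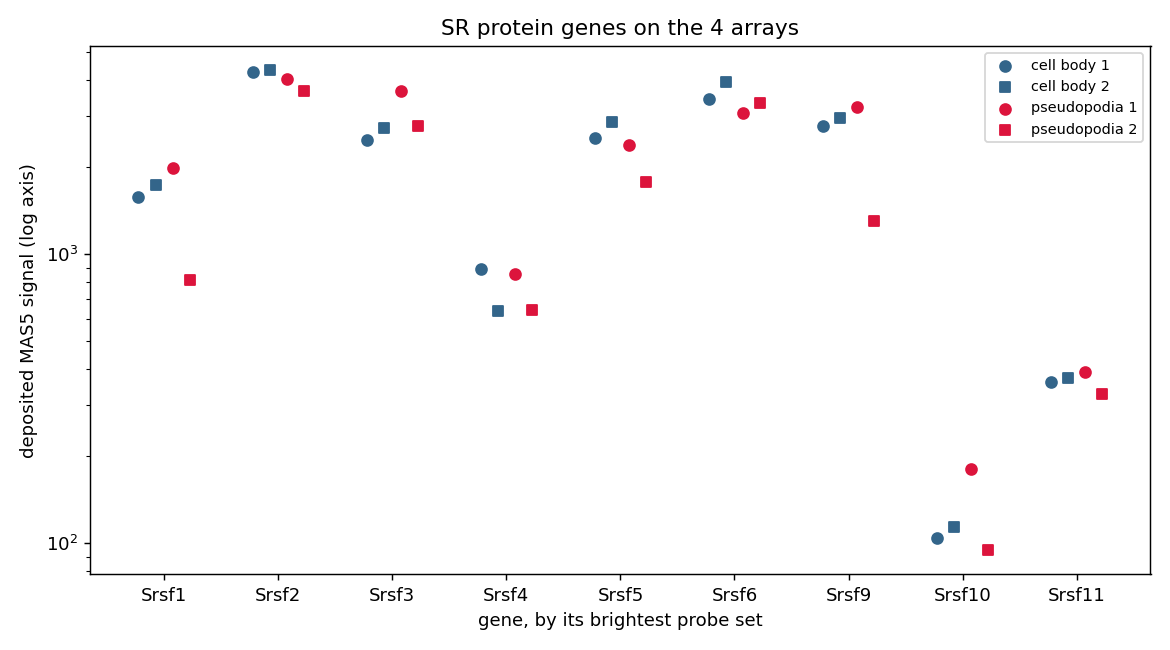
Deposited MAS5 signal, on a log axis, of the brightest probe set of 9 SR protein genes on each of the 4 arrays. For Srsf1 and Srsf9 the pseudopodia replicate 2 array, at 816.1 and 1305.8, lies far below the other 3, while for Srsf3 both pseudopodia arrays lie above both cell body arrays (its estimate is −0.04 when scaled on the hybridization controls).

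Srsf2 (SC35), a nuclear speckle protein, had both pseudopodia arrays below both cell body arrays for its 3 brighter probe sets. The same held for 28.3% of all probe sets. Probe set 1452439_s_at had 1315.4 and 1405 in the cell bodies and 934.2 and 810.2 in the pseudopodia, a log2 difference of −0.63 ± 0.20 (limma adjusted p = 0.111, n = 2 a group; 0.0161 with the replicate block). The brightest, 1427504_s_at, had 4277.9 and 4346.9 and then 4057.6 and 3666.1, a small difference of −0.16 ± 0.16. The third, 1415807_s_at, had a difference of −0.75 ± 0.32 (limma adjusted p = 0.215, n = 2 a group; 0.0181 with the block). The dim 1427816_at went the other way, with 49 and 26.1 in the cell bodies and 111.5 and 62.6 in the pseudopodia (0.94 ± 0.39). It differed from the brightest by 1.10 ± 0.43 (limma adjusted p = 0.332, n = 2 a group). The 3 brighter probe sets carry the _s_at ending, so their assignment to Srsf2 is uncertain.

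Srsf3, the smallest SR protein and an adaptor for mRNA export, had both pseudopodia arrays above both cell body arrays for 4 of its 6 probe sets. The same held for 24.7% of all probe sets. The brightest, 1416150_a_at, had 2495.6 and 2734.9 in the cell bodies and 3675.9 and 2773.6 in the pseudopodia, a log2 difference of 0.29 ± 0.20 that became −0.04 when scaled on the hybridization controls. The dimmest, 1438215_at, had 108.8 and 73.8 and then 45.2 and 41.1, a difference of −0.84 ± 0.32 (limma adjusted p = 0.176, n = 2 a group), again opposite to the brightest. Srsf5 had 2529 and 2866 in the cell bodies and 2384.3 and 1785.5 in the pseudopodia (−0.38 ± 0.21). Srsf6 ran from −0.20 to 0.61 over 4 probe sets, the highest being 1447898_s_at (limma adjusted p = 0.13, n = 2 a group; 0.021 with the block). Its _s_at ending leaves the assignment to Srsf6 uncertain. Srsf10 ran from 0.06 to 0.40, and Srsf11 from −1.35 to 0.33, its lowest probe set being dim and kept through its cell body signal alone. Srsf4 stood at −0.02 ± 0.25.

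The remaining regulators had a median of −0.22 over 40 probe sets, 10 of which were those of Rbm39. Celf1 (CUG-BP1), which binds GU-rich elements and controls both splicing and mRNA decay, also had probe sets that differed in opposite directions. Its brightest probe set, 1426407_at, had 1960.9 and 2373.4 in the cell bodies and 3225 and 4598.4 in the pseudopodia, a log2 difference of 0.83 ± 0.22 (limma adjusted p = 0.0758, n = 2 a group; 0.000468 with the replicate block). The second, 1427413_a_at, had 1235.8 and 1351.1 and then 925.4 and 905.4, a difference of −0.49 ± 0.19. The groups were apart in both, in opposite directions. The difference between them was −1.32 ± 0.29 (limma adjusted p = 0.0846, n = 2 a group; 0.0157 with the block), with −1.12 in replicate 1 and −1.52 in replicate 2. The other 3 Celf1 probe sets had estimates from −0.43 to −0.13.

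The Muscleblind-like genes encode antagonists of Celf1 that also direct mRNAs to cell protrusions and membranes. For Mbnl1 the bright probe set 1416904_at had 1630.2 and 1337.4 in the cell bodies and 2623.6 and 2070.2 in the pseudopodia, a log2 difference of 0.65 ± 0.21 (limma adjusted p = 0.12, n = 2 a group; 0.00659 with the replicate block). Mbnl2 1433754_at was alike, with 304 and 260.2 and then 508.5 and 439.4 (0.72 ± 0.22, limma adjusted p = 0.112, n = 2 a group; 0.0199 with the block). The groups did not overlap in either. The brightest Mbnl2 probe set, 1455827_at, had 681.9 and 555.1 and then 886 and 551.8 (0.18 ± 0.27), so its arrays overlapped. The dimmer probe sets of both genes had estimates under 0, −0.23 for Mbnl1 1457924_at and −0.37, −0.19 and −0.24 for Mbnl2 1436858_at, 1457477_at and 1457237_at, none of which passed the test.

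The poly(C)-binding proteins hnRNP E1 (Pcbp1) and E2 (Pcbp2) stabilise and regulate mRNAs in the cytoplasm. Pcbp2 1421743_a_at had 14619.7 and 15995.1 in the cell bodies and 19187.5 and 18247.4 in the pseudopodia (0.29 ± 0.13). Pcbp1 1448642_at had 11341.8 and 12369.5 and then 13981.2 and 13275.5 (0.20 ± 0.13). Both pseudopodia arrays lay above both cell body arrays for all 3 Pcbp2 probe sets and for Pcbp1, as for 24.7% of all probe sets. However, the estimates of the brightest Pcbp2 and Pcbp1 probe sets turned to −0.04 and −0.13 with scaling on the hybridization controls. With quantile normalization they turned to −0.07 and −0.12. The second Pcbp2 probe set, 1435881_at, had a difference of 0.70 ± 0.21 (limma adjusted p = 0.102, n = 2 a group; 0.00808 with the replicate block).

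Ptbp1 encodes the polypyrimidine tract-binding protein, a repressor of exons. Its brightest probe set, 1424874_a_at, had 5789.4 and 4945.3 in the cell bodies and 5111.7 and 3089.3 in the pseudopodia (−0.43 ± 0.25, arrays overlapping; limma adjusted p = 0.357, n = 2 a group, and 0.0485 with the replicate block). The dim 1450443_at, designed from the RefSeq mRNA, had 38.5 and 70.4 and then 113 and 113.8 (0.92 ± 0.32, limma adjusted p = 0.148, n = 2 a group; 0.0466 with the block). Their difference of 1.34 ± 0.44 was the highest of the 84 pairs (limma adjusted p = 0.238, n = 2 a group). Rbm25, a regulator of apoptosis gene splicing with a region rich in arginine and glutamate, had all 4 estimates above 0, from 0.20 to 0.96. Its brightest probe set, 1428907_at, had 213.9 and 163.9 in the cell bodies and 666.5 and 212.5 in the pseudopodia, so the high value came from pseudopodia replicate 1 (1.57 in replicate 1 and 0.34 in replicate 2). It was called higher with the block (limma adjusted p = 0.01, against 0.279 without), as was 1437862_at (0.0261, against 0.196). Under scaling on the hybridization controls the lowest of the 4, 1425523_at, was −0.12.

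**Figure D5:**
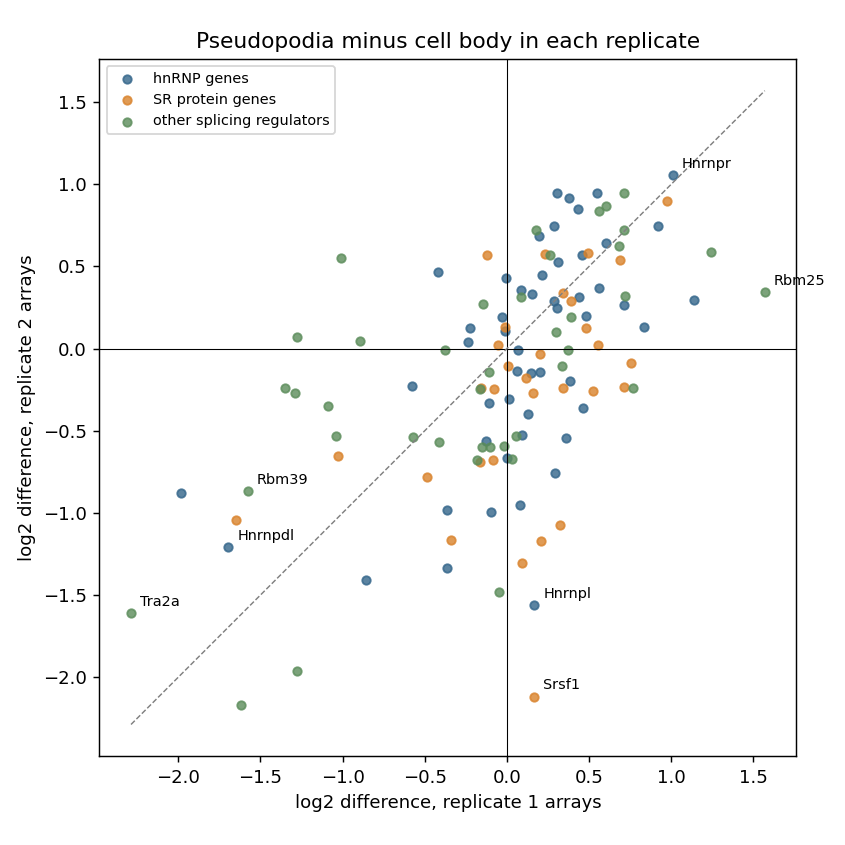
Log2 difference (pseudopodia minus cell body) of the 122 member probe sets in replicate 1 (horizontal axis) against replicate 2 (vertical axis), coloured by group of genes, with the dashed line of equal values. The labelled Tra2a, Rbm39 and Hnrnpdl points are low in both replicates, whereas Hnrnpl and Srsf1, both at 0.17 in replicate 1, stand at −1.56 and −2.12 in replicate 2.

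Seen by replicate, the members had a median difference of 0.12 in replicate 1, with 74 of 122 above 0, and −0.10 in replicate 2, with 56 above 0. All probe sets had medians of −0.01 and −0.04. The sign was the same in both replicates for 78 member probe sets, 63.9%, against 69.5% of all probe sets. Both pseudopodia arrays lay above both cell body arrays for 35 members and below them for 31, which is 28.7% and 25.4% against 24.7% and 28.3% of all probe sets.

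Genes that act on or with these regulators were described by the brightest kept probe set of each gene. Of 10 kinases and import receptors of SR proteins none passed the test, and their median was −0.11. Clk2, a nuclear SR protein kinase, had 703.2 and 711 in the cell bodies and 361.1 and 486.9 in the pseudopodia (−0.73 ± 0.23, limma adjusted p = 0.114, n = 2 a group; 0.0136 with the block), and Tnpo3, the SR protein import receptor, had 445.4 and 345.6 and then 582.2 and 780.4 (0.76 ± 0.25, limma adjusted p = 0.125, n = 2 a group; 0.0158 with the block). Of 22 nuclear speckle and exon junction genes 1 rose and none fell, with a median of −0.18. The gene that rose was Matr3, a nuclear matrix RNA-binding protein, at 1.29 ± 0.22 (limma adjusted p = 0.0286, n = 2 a group). Dimmer probe sets of Nono (paraspeckles) and Rnps1 (exon junction complex) fell, at −1.85 and −1.89, while the brightest probe sets of both had estimates of 0.33 and 0.42, of which that of Rnps1 passed with the block (limma adjusted p = 0.0443, against 0.32 without).

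Of 35 other regulators of alternative splicing none rose and 1 fell, with a median of 0.08. It was Nova2, a neuronal splicing factor read by a dim probe set, with 121.3 and 92.1 in the cell bodies and 18.1 and 5.8 in the pseudopodia (−2.16 ± 0.40, limma adjusted p = 0.0325, n = 2 a group). It was kept through its cell body signal alone, so this fall is a description. Of 7 genes of nonsense-mediated decay, which destroys transcripts with an early stop codon, Smg9 fell by 1.13 ± 0.23 (limma adjusted p = 0.0415, n = 2 a group). A dimmer probe set of Smg5 fell by 2.07 (limma adjusted p = 0.0198, n = 2 a group) while its brightest gave −0.01. Of 4 RNAs known to stay in the nucleus 2 fell, Neat1 at −2.17 and Kcnq1ot1 at −1.54 (limma adjusted p of 0.0116 and 0.0255, n = 2 a group), with a median over the 4 of −1.47. Malat1 had 2030 and 2370.5 in the cell bodies and 438.5 and 1545.6 in the pseudopodia (−1.39 ± 0.49, limma adjusted p = 0.151, n = 2 a group; 0.000179 with the block), with −2.17 in replicate 1 and −0.61 in replicate 2. With the block 3 of the 4 were thus lower. The fourth, Meg3, did not follow, with −0.12 ± 0.38 at its brightest probe set and 0.34 and 0.63 at its other kept ones. Malat1 1452378_at was also above 0, at 0.56, whereas the other kept Malat1 probe sets had estimates under 0. Some of these nuclear RNAs thus moved with the probe sets of Tra2a, Rbm39 and Hnrnpdl that fell, and the part of nuclear RNA in those values was not tested.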

How the data were processed

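The values deposited are MAS5 signals on a linear intensity scale, per the submitters' processing notes. The software version, genome build and probe positions are not given in the sources used here. Per the labels' protocols, RNA was isolated after 45 min at 70 °C to reverse the crosslinks. MAS5 subtracts mismatch signal, so dim probe sets are noisy, and scaling to a common trimmed mean hides a change in total RNA. The 4 arrays limit the precision.

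By the platform's annotation 34958 probe sets carried 1 gene symbol, 932 several (not members) and 9211 none. Each array was rescaled so that its mean after trimming 2% from both ends was 500, 32 was added, and log2 was taken. Probe sets with a mean signal under the median of those that are not controls (30.0 as deposited) were left out. Groups came from the sample titles and were tested in limma 3.58.1 (R 4.3.3), with a variance trend (in the within-gene test, on the level of the dimmer probe set) and Benjamini-Hochberg adjustment over all features at 0.05. Fold changes are on the log2(signal + 32) scale, which understates low values.

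Replicate numbers pair the samples, since sample descriptions share a code within a number and, per the file headers, each number was scanned on a day of its own. The r over probe sets of replicate 2 minus 1 between the fractions was 0.24. The block fit has 1 residual degree of freedom, against 2. The variance that limma shares over probe sets of like level counts for 22.7 degrees of freedom in it, against 5.66 without the block. In the within-gene test these were 10.7 and 7.18. A block p-value therefore rests mostly on that shared variance, and little on how well the 2 replicates of 1 probe set match.

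On simulated data limma recovered 1.74% of 1-unit and 45.3% of 2-unit log2 changes among 22519 probe sets, and 3.39% and 34.2% among 8406 pairs, with 4.88% and 4.87% of calls false. The simulated arrays were independent and followed the variance model that limma fitted, with 200 changed features, so the share of false calls follows from the setup. The real arrays pair by scan day, and the pseudopodia replicates differed more than the cell body replicates, so these rates may not hold for them. Genes named were those called, the 5 highest and 5 lowest member estimates and a fixed list. Other members were described in addition, Srsf9, Hnrnpl, Hnrnpc and Hnrnpul1 after their values were seen. The members and lists were chosen with earlier results of these data known. The alternatives were other pseudocounts, filters, normalizations and variance models, the replicate block and leaving out each array.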

Additional observations from a re-analysis of the deposited data

How the results depend on the processing

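The main counts were 0 higher and 3 lower member probe sets and 1 within-gene difference. A pseudocount of 8 gave 0, 3 and 1, and 64 gave 0, 4 and 1. The lower counts over all 22519 probe sets were then 591 and 871. With no filter on dim probe sets the lower count was 0, and 32 members had an unadjusted p under 0.05. A filter at the upper quartile gave 1 higher (Hnrnpr 1437526_x_at, limma adjusted p = 0.0488), 1 lower (Rbm39) and 0 within-gene differences, since the Tra2a and Hnrnpdl probe sets were not among the 84 members tested. Of the 11260 probe sets that the upper-quartile filter left, 289 were higher and 577 lower. Quantile normalization and median centring gave 2 lower members each, losing Hnrnpdl (limma adjusted p = 0.0589 and 0.0523), and 1 within-gene difference. Of all 22519 probe sets 549 and 647 were then lower. Scaling on the hybridization controls gave 6 lower members, against 1554 of all 22519 probe sets, and 1 within-gene difference, against 81 of all 8406 pairs. It moved the median of all probe sets to −0.32 and that of the members to −0.29, with 35 of 122 above 0. Without a variance trend limma called 0 members, 0 pairs and no probe set at all, and 23 members had an unadjusted p under 0.05. The replicate block gave 15 higher, 14 lower and 5 within-gene differences, the 3 lower calls among them. Over the series it gave 1647 higher and 2691 lower of all 22519 probe sets, and 230 of all 8406 pairs. Leaving out each array gave 0 to 11 higher, 0 to 21 lower and 0 to 19 within-gene differences, a left-out group's lone array being assumed to vary like the other group. Over single named probe sets no called value changed sign, but 43 alternative values that were not called did. For example, Srsf1 1430982_at went from −0.97 to 0.26 and Mbnl2 1436858_at from −0.37 to 0.22 without pseudopodia replicate 2. Other alternative values gained or lost a call, many of them in the fits with a lone array in a group. The cause of these shifts was not tested. No detection call was used, so signals near the filter level rest on few probes above background.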

Other observations

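Probe sets annotated with Hnrnpa3 or Hnrnpa1 together with related loci were not members, and which of the loci they read is uncertain. For the pair of symbols Gm6793 and Hnrnpa3, probe set 1428262_s_at had 1139.2 and 1457.7 in the cell bodies and 3030.9 and 3572.1 in the pseudopodia, and it rose by 1.34 ± 0.20 on the log2 scale (limma adjusted p = 0.0235, n = 2 a group). The replicates gave 1.40 and 1.28. The other 3 probe sets of this pair had estimates of 0.99, 0.53 and 0.17, none of which passed the test. The 3 probe sets shared by Hnrnpa1 and its related loci had estimates of 0.51, 0.59 and 0.13, and none passed.

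A further gene of the nuclear speckle list had probe sets in opposite directions. Luc7l2, a U1 snRNP-associated factor, had 1959.9 and 1745.4 in the cell bodies and 784.2 and 1121.8 in the pseudopodia for 1436766_at (−0.97 ± 0.23, limma adjusted p = 0.0577, n = 2 a group; 0.000691 with the replicate block), and 500.1 and 537.6 and then 942.4 and 1035.5 for 1423251_at (0.91 ± 0.20, an adjusted p just above the limma threshold; 0.00155 with the block). Rbm5, a regulator of apoptosis gene splicing from the list of other splicing regulators, had 4 kept probe sets with estimates from −1.53 to −0.61, of which 1456262_at fell by 1.17 ± 0.26.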
